A study of Caenorhabditis elegans with 2 samples.

Results

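Small nucleolar RNA (snoRNA) genes were examined for LAG-1 binding candidates in Caenorhabditis elegans. A candidate belonged to the set if its summit lay within 500 bp of a gene annotated as snoRNA and not within 500 bp of a transfer RNA (tRNA) or small nuclear RNA (snRNA) gene, at any strength. The set held 547 of the 125458 entries that the authors ranked by agreement between replicates, and it touched 313 of the 346 annotated snoRNA genes. The ranking is dense, and how often other loci of the same span hold an entry was not counted. Neither number therefore sets snoRNA genes apart. LAG-1 is the DNA-binding protein of the Notch pathway, which the cleaved intracellular part of the receptor joins in the nucleus. Chromatin immunoprecipitation and sequencing (ChIP-seq) was done on whole young adult worms at 62 hours, in 1 group of 2 biological replicates. The labels' descriptions give an antibody to GFP, and their antibody field names lag-1.

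The worms were of strain RW12314, in which CRISPR placed TY1, EGFP and 3xFLAG tags at the lag-1 gene itself on chromosome IV, and they had been synchronised by starvation as L1 larvae after bleaching. Both replicates carry the tag, so no untagged or untreated group could be set beside them. Whole animals mix all tissues, and binding in few cells cannot be told apart from weaker binding in many. The replicates are biological ones of the same strain. Sequencing depth is unknown, because no file used gives a read total.

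Small nucleolar RNAs guide the chemical modification of ribosomal RNA. The box C/D class directs ribose methylation and the box H/ACA class directs pseudouridylation, each within a particle of core proteins. In C. elegans some snoRNA genes lie in introns of protein-coding genes and others lie between genes with promoters of their own. Transfer RNA genes are transcribed by RNA polymerase III from a pair of internal promoter elements, box A and box B, which the factor TFIIIC binds. LAG-1 itself recognises the word ATGGGAA or GTGGGAA.

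A pattern of letters stood in the stretches just before some of the snoRNA genes with strong candidates. Each stretch below holds the 100 bases before the annotated 5′ end and the first 20 bases of the snoRNA gene, on the strand of the snoRNA gene, from the NCBI assembly WBcel235 (ce11). The first 7 hold letters of both promoter boxes of tRNA genes. Capitals mark box A (TGGC, any 2 bases, AG, any 2 bases and G) followed by box B (GTTCNANNC, where N is any base). These letters were chosen after the sequences at the 12 strongest candidates had been read. The first 5 stood at candidates with an IDR of 0.05 or below, and Y59E1B.14 at the weakest of the genes with both boxes. At R166.7 the box B letters run past the annotated start, which kept it out of the count of genes with both boxes upstream.
Y43F8C.22, chrV:19643168-19643287, minus strand: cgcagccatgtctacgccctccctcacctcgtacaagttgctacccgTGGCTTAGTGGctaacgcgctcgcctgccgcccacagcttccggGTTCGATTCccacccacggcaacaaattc
W03C9.9, chrII:11960798-11960917, plus strand: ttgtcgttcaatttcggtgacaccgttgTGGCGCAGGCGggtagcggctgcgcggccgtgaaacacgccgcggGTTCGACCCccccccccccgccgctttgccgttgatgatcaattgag
T03F7.8, chrV:11314158-11314277, plus strand: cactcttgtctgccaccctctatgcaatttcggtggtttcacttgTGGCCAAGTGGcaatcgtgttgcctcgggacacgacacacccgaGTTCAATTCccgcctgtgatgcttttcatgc
F55A11.10, chrV:11782892-11783011, plus strand: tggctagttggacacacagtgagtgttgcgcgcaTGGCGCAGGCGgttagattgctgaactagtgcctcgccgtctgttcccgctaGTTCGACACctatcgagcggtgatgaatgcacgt
F32E10.10, chrIV:7574022-7574141, plus strand: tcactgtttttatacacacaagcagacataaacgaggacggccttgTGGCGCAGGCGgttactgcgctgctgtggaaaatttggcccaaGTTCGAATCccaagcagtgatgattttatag
Y59E1B.14, chrX:1891409-1891528, plus strand: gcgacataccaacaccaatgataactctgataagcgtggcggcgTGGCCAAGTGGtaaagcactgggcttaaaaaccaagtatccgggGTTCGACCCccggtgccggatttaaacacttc
R166.7, chrII:10545310-10545429, minus strand: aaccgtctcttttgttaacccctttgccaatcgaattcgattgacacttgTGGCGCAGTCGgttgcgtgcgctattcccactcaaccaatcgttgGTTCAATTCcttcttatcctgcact

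The 2 strongest candidates at snoRNA genes had neither box in this stretch. They are shown because the pattern of box letters does not cover them. Capitals in the ZK994.7 stretch mark the word TGTCGG, which before genes was searched on the strand of the gene, as the box letters were, and the C51F7.4 stretch held none of the words searched.
ZK994.7, chrV:8500479-8500598, plus strand: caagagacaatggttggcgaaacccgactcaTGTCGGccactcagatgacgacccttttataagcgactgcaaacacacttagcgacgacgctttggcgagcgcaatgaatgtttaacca
C51F7.4, chrV:12303499-12303618, plus strand: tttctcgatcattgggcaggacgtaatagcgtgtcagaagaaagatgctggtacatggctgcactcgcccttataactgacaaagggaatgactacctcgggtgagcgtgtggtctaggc

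Candidates at snoRNA genes were stronger and more often reproducible than the ranking as a whole. Strength is the deposited signal, the authors' peak caller value over the control in a unit that the files do not name, and every entry spans 236 bp. The median signal was 22.6 at snoRNA genes (quartiles 15.2 and 31.7), against 19.4 over all entries (13.1 and 26.5). The signal at 332 of the 547 candidates, or 60.7%, exceeded the median of all entries. Reproducibility is given by the deposited irreproducible discovery rate (IDR). It estimates which share of the entries ranked at least as high would not repeat, so low values are the better. At an IDR of 0.01 or below stood 18 of the 547 candidates, or 3.29% (95% Wilson interval 2.09 to 5.14%), against 0.312% of all entries. At 0.05 or below stood 49, or 8.96% (6.84 to 11.6%), against 1.37% of all entries. These intervals cover counting error only, and candidates at 1 gene or in overlapping entries are not independent.

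Shares near other small RNA genes lay in the same range. At an IDR of 0.05 or below stood 8.96% of the candidates at snoRNA genes, 65 of 872 entries near tRNA genes (7.45%, 5.89 to 9.39%) and 13 of 183 near snRNA genes (7.10%, 4.20 to 11.8%), against 1588 of the other 123850 entries (1.28%). The intervals of the 3 RNA classes overlap one another. Median signals were 22.6 at snoRNA genes, 23.2 near tRNA genes and 21.7 near snRNA genes, against 19.3 in the rest.

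**Figure D1:**
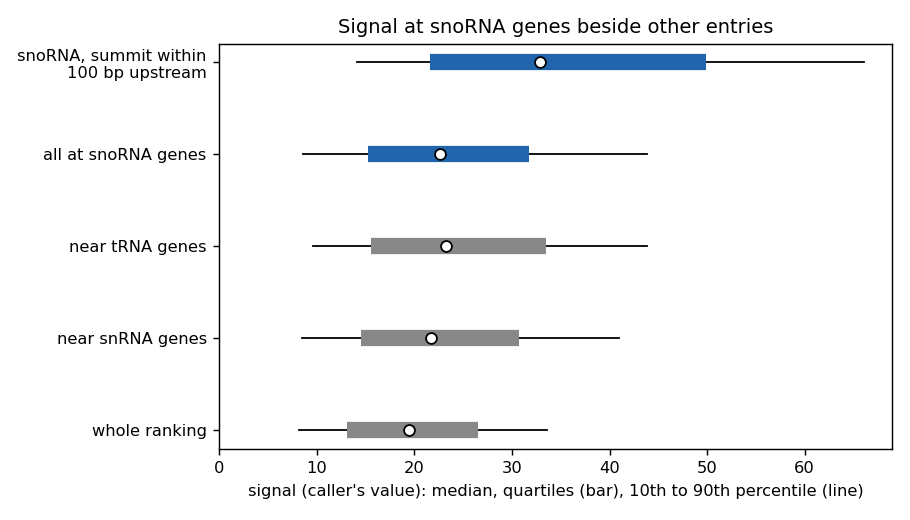
Deposited signal (horizontal axis, the caller's value) by class of entry (rows), with the median as a circle, the quartiles as a bar and the 10th to 90th percentile as a line. Candidates whose summit lies within 100 bp upstream of a snoRNA gene have a median of 32.9, all candidates at snoRNA genes 22.6, and the whole ranking 19.4.

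The set's makeup differed from the ranking in several measured respects. GC content around the summit (201 bases) averaged 40.5% at snoRNA genes, against 38.0% over all entries. Entries lying mostly in repeat-masked sequence made up 10.4% of the set, against 19.1% of all entries. Promoters of protein-coding genes held 18.8% of the set, against 14.5% of all entries. In GC-rich windows of 45% or more, 35 of 145 candidates at snoRNA genes (24.1%) had an IDR of 0.05 or below, against 4.03% of all such entries. In windows below 45% the counts were 14 of 402 (3.48%), against 0.866%. The part of these features in the higher shares was not tested.

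Most snoRNA genes had 1 or 2 candidates nearby. One candidate was nearest to 111 genes, 172 genes had 2, and 30 genes had 3 or more, with 4 the highest number. Of the 33 genes without one, 24 had no candidate summit within 500 bp. The other 9 had a candidate that was assigned to a nearer snoRNA gene or lay near a tRNA or snRNA gene. The 38 candidates that lay 450 to 500 bp from a snoRNA gene had a median signal of 18.3, and the 39 entries at 501 to 550 bp had 23.8.

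Strong candidates more often had their summit just upstream of the snoRNA start. Distances are counted along the strand of the snoRNA gene from its annotated 5′ end, with negative values upstream. Summits lay upstream at 245 of the 547 candidates (44.8%, 40.7 to 49.0%), inside the gene at 86 and downstream of its end at 216. Of the 49 candidates with an IDR of 0.05 or below, 35 lay upstream (71.4%, 57.6 to 82.2%), against 210 of the 498 with a higher IDR (42.2%, 37.9 to 46.5%). Among the 18 at 0.01 or below, 15 lay upstream, and 12 of those lay within 100 bp of the start.

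The 76 candidates with a summit within 100 bp upstream had a median signal of 32.9 (quartiles 21.6 and 49.9), against 21.5 (14.5 and 29.8) at the other 471. This distance was chosen after the values had been seen. An IDR of 0.05 or below was held by 23 of the 76 (30.3%, 21.1 to 41.3%), against 26 of the 471 (5.52%, 3.79 to 7.97%). Both compared lists showed the difference, with medians of 17.2 against 11.9 in the first list and 17.2 against 11.4 in the second. Candidates farther upstream did not share it: the 169 beyond 100 bp had a median of 22.4. In single replicates the numbers were smaller. In the own ranking of replicate 2, 10 of the 60 candidates within 100 bp upstream reached 0.05, against 17 of all its 311 candidates at snoRNA genes. The ratio of medians to elsewhere was 1.36, against 1.53 in the ranking of both replicates. In the own ranking of replicate 1, 3 of 67 reached 0.05, against 7 of all its 335, and the ratio was 1.13.

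**Figure D2:**
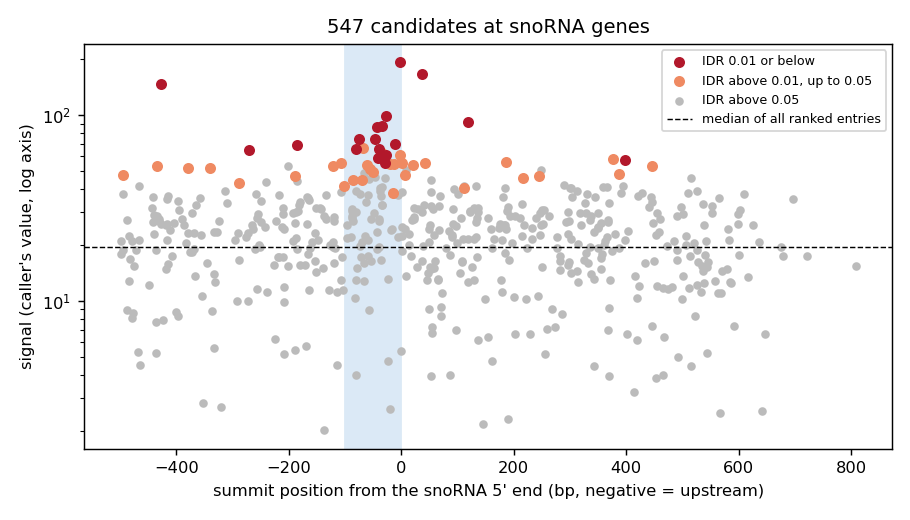
Signal of each of the 547 candidates (vertical log axis) against the position of its summit from the snoRNA 5′ end in bp (horizontal axis, negative upstream), coloured by IDR; the shaded band is the 100 bp upstream and the dashed line the median of all ranked entries, 19.4. Of the 18 candidates at an IDR of 0.01 or below, 12 lie in the band.

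In steps of 50 bp the share peaked just before the start. From 50 to 1 bp upstream, 16 of 39 candidates (41.0%, 27.1 to 56.6%) had an IDR of 0.05 or below, and their median signal was 39.0. From 100 to 51 bp upstream the count was 7 of 37 (18.9%, 9.48 to 34.2%). In the first 50 bases after the start it was 5 of 29 (17.2%, 7.60 to 34.5%), and in the next 50 bases 0 of 35, with an upper Wilson limit of 9.89%. These 4 bins hold few entries each, and the intervals of the neighbouring bins overlap.

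**Figure D3:**
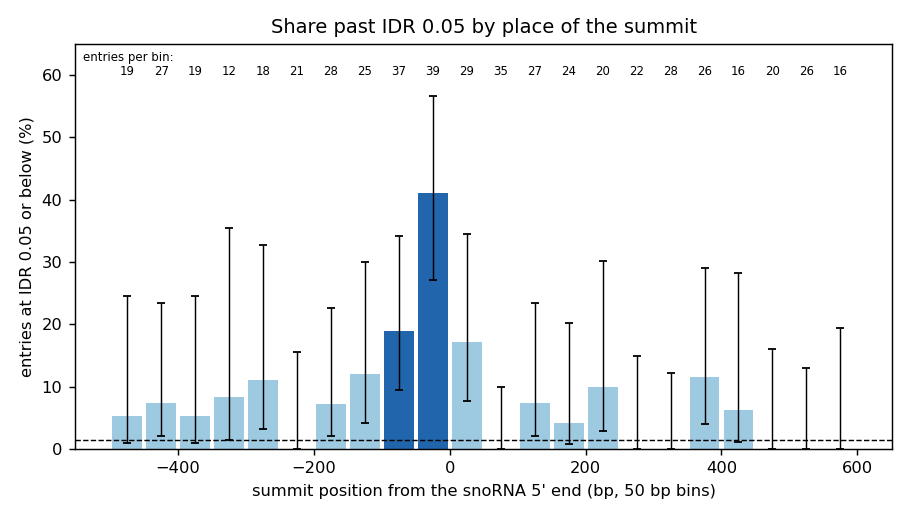
Share of candidates with an IDR of 0.05 or below (vertical axis, percent) in 50 bp bins of summit position from the snoRNA 5′ end (horizontal axis); error bars are 95% Wilson intervals, small numbers count the candidates per bin, and the dashed line is the 1.37% of all entries. The bin from 50 to 1 bp upstream is at 41.0%, and 13 candidates beyond 600 bp from the start, at long genes, are not drawn.

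GC content moved with the summit's place: mean GC was 46.1% within 100 bp upstream, against 39.6% elsewhere. Within GC-rich windows of 45% or more, 19 of 42 candidates within 100 bp upstream (45.2%, 31.2 to 60.1%) had an IDR of 0.05 or below, against 16 of 103 elsewhere (15.5%, 9.79 to 23.8%). In windows below 45% the counts were 4 of 34 (11.8%, 4.67 to 26.6%), against 10 of 368 (2.72%, 1.48 to 4.93%), and these intervals overlap. Promoters of protein-coding genes are close to some snoRNA genes. Without the candidates in them, 16 of 59 within 100 bp upstream (27.1%, 17.4 to 39.6%) had an IDR of 0.05 or below, against 22 of 385 elsewhere (5.71%, 3.80 to 8.50%).

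Candidates at snoRNA genes in introns and between genes had overlapping spreads of signal. Intronic snoRNA genes had 276 candidates with a median signal of 23.2 (quartiles 16.2 and 31.7), against 22.4 (14.5 and 32.1) for 204 candidates at intergenic ones. An IDR of 0.05 or below was held by 23 intronic candidates (8.33%, 5.62 to 12.2%), against 22 intergenic ones (10.8%, 7.23 to 15.8%). The difference was smaller than these intervals. The remaining 67 candidates, at snoRNA genes that overlap an exon or lie partly outside an intron, had a median of 19.8, and 4 of them (5.97%) had an IDR of 0.05 or below. The ratio of the medians, 1.04, was 0.889 in replicate 2's own ranking and 0.960 in that of replicate 1. The higher share just upstream of the start appeared both in introns and between genes. Within 100 bp upstream, 11 of 40 intronic candidates (27.5%, 16.1 to 42.8%) passed 0.05, against 12 of 236 intronic ones elsewhere (5.08%, 2.93 to 8.68%). For intergenic snoRNA genes it was 10 of 29 (34.5%, 19.9 to 52.7%), against 12 of 175 (6.86%, 3.97 to 11.6%).

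The strand of the host gave overlapping intervals. The snoRNA lay on the strand opposite to its host at 44 intronic candidates, with a median signal of 24.0 and 4 at an IDR of 0.05 or below (9.09%, 3.59 to 21.2%). It lay on the same strand as its host at 232, with a median of 23.1 and 19 at or below 0.05 (8.19%, 5.31 to 12.4%). Median signals were 22.6 for snoRNA genes on the plus strand of the chromosome and 22.5 for those on the minus strand.

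The strongest candidate lay before ZK994.7 in an intron of pxn-1, the gene of an extracellular matrix peroxidasin. It covered chrV:8500458-8500693, and its summit was 3 bp upstream of the snoRNA start. Its signal of 192.2 ranked 21st among all entries at an IDR of 3.66e-04, with 87.9 in the first list and 100.9 in the second. The next strongest lay inside C51F7.4, in frm-7, at 165.8 with 88.0 and 74.5 in the 2 lists, and its summit was 37 bp after the start. Y43F8C.22, in an intron of Y43F8C.7, had 98.3 with 47.2 and 49.7 in the lists, 28 bp upstream. These 3 were the candidates that reached both replicates' own thresholded lists, and all lay on chromosome V.

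Single replicates' lists gave fewer names. Replicate 1's own thresholded list of 47 entries touched 4 of the 547 candidates, and B0334.12, in twk-5, a potassium channel gene, was the one found there alone (91.3, with 53.5 in the first list and 40.3 in the second). Replicate 2's list of 77 touched 7, of which 4 were not in replicate 1's. Those were W01C9.6 in glb-27, F59C6.15, W03C9.9 and ZK265.10. ZK265.10 missed an IDR of 0.01, at 0.0457, with 17.1 in the first list and 44.8 in the second.

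Of the 18 candidates at an IDR of 0.01 or below, 14 were higher in the second list, as were 66608 of all 125458 entries. Among them, 2 lay at snoRNA genes that are neither fully intronic nor intergenic, C51F7.4 and W01C9.6. Intronic ones comprised ZK994.7, Y43F8C.22, B0334.12, T03F7.8 in cutl-18, F55A11.10 in F55A11.6, R166.7 in mnk-1, F17C11.15 in eef-1G and ZK484.9 in haf-9. T03F7.8 had a signal of 74.4, with 30.6 in the first list and 43.0 in the second, 75 bp upstream. F55A11.10 had 61.1, with 33.1 and 29.2, 28 bp upstream, and lies in a promoter of a protein-coding gene. F17C11.15 differed in place, with its summit 397 bp after the start and a signal of 57.6 (27.1 and 30.8). Its host eef-1G encodes a subunit of translation elongation factor 1.

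Intergenic snoRNA genes gave another 8 of the 18. W03C9.9 had a signal of 74.4, with 26.9 in the first list and 49.5 in the second, 47 bp upstream. F59C6.15 had 85.8, with 29.4 and 54.4, 44 bp upstream. T06C12.16 had 69.6, with 37.2 and 36.3, 11 bp upstream. Y53F4B.47 (66) and Y75B12B.12 (65.6) also lay within 100 bp upstream, at 40 and 81 bp, and both lie in promoters of protein-coding genes. W06H8.17 (68.7) and R166.10 (64.5) lay farther off, at 185 and 271 bp upstream. The last, at the snoRNA gene WBGene00220185 (WormBase identifier), stood apart. Its summit lay 428 bp upstream of the snoRNA start at chrIV:14780293-14780528, where 83.1% of the window around it is repeat-masked, and its signal of 147.7 had 43.5 in the first list and 121.3 in the second. It was the single one of the 18 missing from the authors' conservative list, which holds 17 of them among 291 entries. It also touched neither replicate's own thresholded list nor the authors' other thresholded list of the series. That was equally so for R166.10, F55A11.10 and ZK484.9 among the 18. The conservative list leaves out 100 of the entries of the whole ranking at an IDR of 0.01 or below.

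Between an IDR of 0.01 and 0.05 the set held further candidates in every place. K02C4.8 had a signal of 66.3, with 20.3 in the first list and 34.5 in the second, 68 bp upstream. C41C4.11 had 61.3, with 22.8 and 34.7, 3 bp upstream. K07E1.2 had 58.1, with 29.9 and 22.3, but 376 bp after the start, and all 3 lie in promoters of protein-coding genes. Summits inside the snoRNA gene were rarer, and 6 of 86 (6.98%, 3.24 to 14.4%) reached 0.05. These were C51F7.4, W04D2.7 in inx-11, an innexin gene (55.0), F30H5.4 (54.9), T08B2.13 in fars-1, a phenylalanyl-tRNA synthetase gene (53.8), F11A10.9 in rbm-34 (47.6) and C17H12.36 (40.6). T23G11.12, among the 5 strongest at snoRNA genes neither intronic nor intergenic, missed 0.05 at 0.313, with a signal of 45 and with 31.5 in the first list and 9.87 in the second. Among upstream ones, T02E1.9 in spe-12 had 54.7, with 21.7 in the first list and 30.3 in the second, 20 bp upstream. F39B2.14 in tmem-107 had 53.5, with 20.3 and 34.6, 122 bp upstream. T23G11.12, T02E1.9 and F39B2.14 also lie in promoters of protein-coding genes. ZK643.9 had 54.1, with 24.5 and 29.3, 61 bp upstream. C16D9.11 in rol-3 had 49.4, with 22.7 and 29.5, 50 bp upstream. F26D10.24 in hsp-1, an HSP70 chaperone gene, had 43.1, with 41.4 and 18.4, and lay 288 bp upstream. Downstream of the snoRNA gene 8 of 216 (3.70%, 1.89 to 7.14%) reached 0.05, with B0334.12, K07E1.2 and F17C11.15 the strongest.

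Agreement between the compared lists was limited. Over the 547 candidates Spearman's rho between the signals in the lists was 0.382, and over all 125458 entries it was 0.222. It was 0.131 among the 49 candidates at an IDR of 0.05 or below and 0.217 among the 498 with a higher IDR. Both lists hold the entries of the same ranking, and these values are a description. The first list exceeded the second more than 2-fold at 86 candidates, and the second exceeded the first so at 95. Among the 49 at an IDR of 0.05 or below these numbers were 1 and 4. The IDR is derived from agreement between the lists, so low numbers there follow from the selection. Among the 50 strongest, the first list led most at K08F11.8 (30.5 in the first against 11.7 in the second), T04A8.17 in ppat-1 (36.8 against 14.9) and T24H7.6 (33.1 against 16.3). The second list led most at F38E11.14 in cng-3 (47.6 in the second against 15.5 in the first), WBGene00220185 and ZK265.10. Signals above the median of all entries in both lists were found at 206 candidates (37.7%), against 28.8% of all entries.

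**Figure D4:**
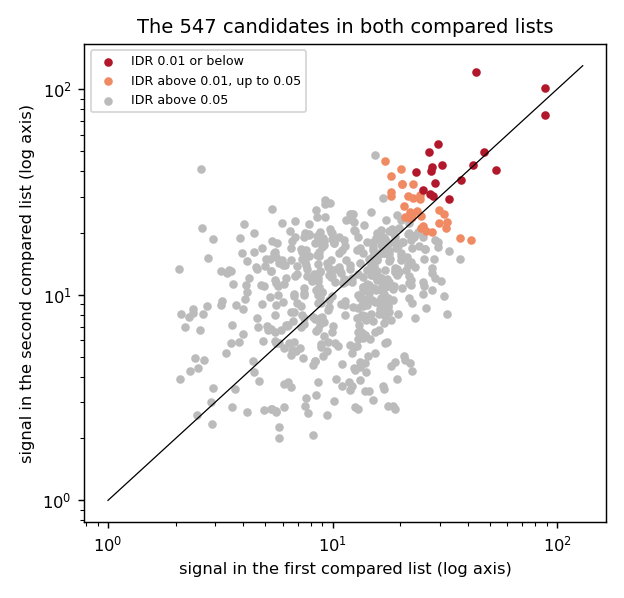
Signal of the 547 candidates in the second compared list (vertical log axis) against the first (horizontal log axis), coloured by IDR; the line marks equal values. The 18 candidates at an IDR of 0.01 or below lie at the upper right, from 23.6 upward in the first list and 29.2 upward in the second.

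Each replicate's own ranking, made within that replicate, showed shares above its own background. In replicate 1 the ranking held 335 candidates at snoRNA genes, and 7 of them (2.09%, 1.02 to 4.25%) had an IDR of 0.05 or below, against 0.315% of all its entries. At 0.01 or below it held 5, against 0.170% of its entries. In replicate 2 the ranking held 311, and 17 (5.47%, 3.44 to 8.58%) reached 0.05, against 0.508%, and 8 reached 0.01, against 0.291%. The authors' other series ranking held 533, of which 52 (9.76%) reached 0.05, against 1.68%, and 20 (3.75%) reached 0.01, against 0.344%.

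The letters of both promoter boxes of tRNA genes stood in the 150 bases before 13 of the 346 snoRNA genes (3.76%, 2.21 to 6.32%), against 3 of 19973 protein-coding genes (0.0150%). Both had to lie on the strand of the gene, with box B starting 15 to 90 bases after box A. Box A began 72 to 53 bases before the annotated start (median 58), box B 27 to 9 bases before it (median 14), and the spacing between the box starts was 43 to 52 bases (median 44). The nearest annotated tRNA gene was 1164 to 316732 bp away from the summit of the strongest candidate at each gene. Of the 13, Y59E1B.14 and T08B2.13 have an annotated tRNA pseudogene in the same 150 bases, and F55A11.10, T03F7.8, T19B4.8 and T08B2.13 have an annotated ncRNA gene there. Intronic snoRNA genes made up 7 of the 13 and intergenic ones 6. For scale, the same letters and spacing were found inside 72 of 612 tRNA genes (11.8%), so the search misses most tRNA genes, and no match says only that these letters are absent.

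All 13 genes with both boxes had a candidate, and so did 300 of the 333 genes without the pair. The strongest candidates at the 13 had a median signal of 53.1 (range 20.8 to 98.3), against 28.1 at those 300. At 8 of 13 (61.5%, 35.5 to 82.3%) the strongest had an IDR of 0.05 or below, against 41 of 300 (13.7%, 10.2 to 18.0%). The letters were chosen from the 12 strongest candidates, 3 of which are at genes with both boxes. Outside those 12, the 10 other genes with both boxes had a median of 49.1, and 5 of them reached 0.05 (23.7 to 76.3%). The strongest candidate can lie far from the boxes. At T19B4.8 the one counted (53.1, IDR 0.0138) lay 446 bp after the start, and the one beside the boxes, 62 bp upstream, had a signal of 34.1 at an IDR of 0.175. At Y39G10AR.24 the strongest (32.0, IDR 0.221) lay 441 bp after the start, and the one 97 bp upstream had 21.8. The highest were Y43F8C.22 (98.3), T03F7.8 (74.4) and W03C9.9 (74.4), followed by F55A11.10 (61.1) and F32E10.10 (55.2). The lowest were Y59E1B.14 (20.8, with 7.88 in the first list and 19.7 in the second) and C04G6.12 (31.6, with 12.1 and 24.6). The 12 strongest were read to choose the letters, and the other 10 genes were not among those read. The letters were still chosen with earlier results of these data known, so the 10 are not an independent set.

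**Figure D5:**
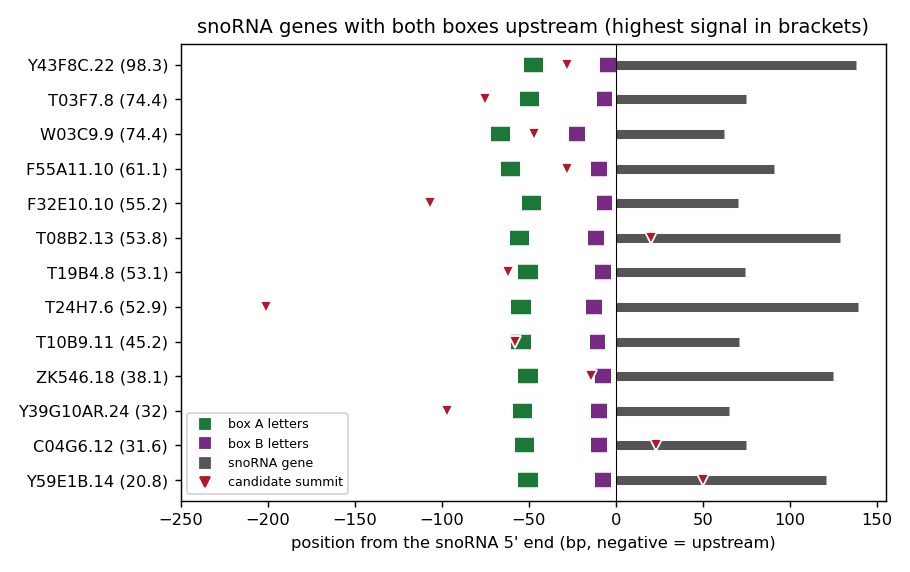
Positions in bp from the snoRNA 5′ end (horizontal axis, negative upstream) of box A letters, box B letters, the snoRNA gene (drawn to at most 150 bp) and candidate summits at the 13 genes with both boxes upstream (rows, strongest signal in brackets); summits beyond the axis are not drawn. Box A starts 72 to 53 bp and box B 27 to 9 bp before the annotated start, whatever the strength of the candidate.

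Single boxes were commoner than the pair. Box A letters stood before 25 snoRNA genes (7.23%), against 0.220% of protein-coding genes, and box B letters before 35 (10.1%), against 2.15%. These counts include the genes read to choose the letters. Outside the 12 strongest candidates, box A stood before 21 snoRNA genes, box B before 32 and the pair before 10. The word TGTCGG, searched on the strand of the gene, stood before 38 snoRNA genes (11.0%), against 1.22% of protein-coding genes. It is the word in the ZK994.7 stretch, and like the box letters it was chosen after the 12 strongest candidates had been read. The strongest candidates at genes with it had a median of 32.7, against 28.0 at genes without it. Outside those 12, 35 genes held it, and the 30 of them with a candidate had a median of 31.6. The strongest candidate had an IDR of 0.05 or below at 6 of these 30 (9.51 to 37.3%), and of 0.01 or below at 0. Among the 280 genes with a candidate and without the word, 40 reached 0.05 (14.3%, 10.7 to 18.9%), and these intervals overlap. Genes of the 12 strongest candidates were not left out of the 280. Around the summits themselves, with both strands searched, the pair lay within 100 bp at 13 of the 547 candidates (2.38%), against 0.245% of all entries and 2.75% of entries near tRNA genes. The count includes Y43F8C.22, B0334.12, W03C9.9 and T03F7.8, which were among the 12 read to choose the letters. These 13 candidates do not match the 13 genes with both boxes upstream. They include R166.7 and B0334.12 (signal 91.3, summit 118 bp after the start). They leave out F32E10.10, T24H7.6 and Y59E1B.14.

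Annotated relics of tRNA genes lay near few candidates. RefSeq lists 209 tRNA pseudogenes, and 4 snoRNA genes had one in the 150 bases upstream: Y59E1B.14, D1046.6, F19H8.6 and T08B2.13. Candidates within 500 bp of such a pseudogene numbered 8, of which 1 had an IDR of 0.05 or below, and the 539 farther away had 48 (8.91%).

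The share of snoRNA candidates with a LAG-1 word lay near that of all entries. ATGGGAA or GTGGGAA on either strand lay within 100 bp of 37 of the 547 summits (6.76%, 4.95 to 9.18%), against 8082 of all entries (6.44%). Among the 49 at an IDR of 0.05 or below it lay at 4 (8.16%, 3.22 to 19.2%), namely Y43F8C.22, F59C6.15, R166.7 and Y37E3.20 in pcyt-2.1. In the 150 bases before the gene it stood, on either strand, at 12 snoRNA genes (3.47%), against 5.22% of protein-coding genes.

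Candidates in introns fell in 147 host genes. The host with the most snoRNA genes with a candidate was nol-56, and 12 hosts tied behind it with 2 each. Of these, the 4 with the most candidates were prp-8, eef-1G, Y37E3.8 and air-1. The gene nol-56 encodes a core protein of the box C/D particle and holds 4 such snoRNA genes with 7 candidates. Their signals ran between 10.4 and 33.3, and none had an IDR of 0.05 or below. The gene prp-8 encodes a spliceosome component and had 6 candidates at 2 snoRNA genes, between 8.07 and 37.4, again with none. The gene eef-1G had 4 between 15.1 and 57.6, of which 1 passed. Y37E3.8 had 4 between 15.6 and 33.7, and air-1, an Aurora kinase gene, had 4 between 2.17 and 14.3, with none at 0.05 or below in either. The other tied hosts were rps-12, rpl-15, pdl-1, rpl-6, rpl-7A, rps-29, top-2 and ssl-1. Among these, rpl-7A had 2 candidates (24.5 and 51.9), of which 1 passed 0.05, and the rest had none that did. Several snoRNA genes in 1 host share that host's sequence and are not separate tests.

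Hosts that encode ribosomal proteins, a common home of snoRNA genes in animals, held 27 candidates at 18 snoRNA genes. Their median signal was 25.6, against 23.1 for 249 candidates in other intronic hosts. An IDR of 0.05 or below was held by 2 of the 27 (7.41%, 2.06 to 23.4%), Y24D9A.9 in rpl-7A (51.9) and D1007.20 in rpl-24.1 (48), against 21 of the 249 (8.43%, 5.58 to 12.5%). None of the 27 reached 0.01. Promoters of protein-coding genes held 51.9% of the 27.

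Of 10 genes for proteins that assemble with snoRNAs, 2 had a candidate with an IDR of 0.05 or below between 2000 bp upstream of the 5′ end and the 3′ end, against 7.79% of 19973 protein-coding genes. None reached 0.01, against 1.56%. In each replicate's own ranking none of the 10 reached 0.05. The 2 were nola-3, for a small protein of the H/ACA particle (53.2, with 30.6 in the first list and 21.4 in the second, IDR 0.0258), and nol-58, for a core protein of the C/D particle (45.6, with 21.2 and 25.3, IDR 0.0411). The strongest candidates at the others ran between 28.3 and 44.3. For the C/D proteins these were 38.9 at fib-1, which encodes the methyltransferase fibrillarin, 34.0 at nol-56 and 28.3 at snu-13. For the H/ACA proteins they were 44.3 at dkc-1, which encodes the pseudouridine synthase, 33.1 at garr-1 and 30.0 at Y48A6B.3. The assembly helicase genes ruvb-1 and ruvb-2 had 36.8 and 39.3.

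Chromosomes differed in counts at small numbers. An IDR of 0.01 or below was held by 9 of 99 candidates on chromosome V (9.09%), against 0.277% of all entries there. On II it was 6 of 107 (5.61%), against 0.307%. On I it was 2 of 115 (1.74%), against 0.289%. On IV it was 1 of 90 (1.11%), against 0.286%. On III it was 0 of 87, with an upper Wilson limit of 4.23%, against 0.279%. The X chromosome held 49 candidates with a median signal of 19.3. None was at 0.01 or below, against 0.414% of all entries on X. None was at 0.05 or below either, against 1.79% of all entries on X and 8.96% of the whole set. The upper Wilson limit was 7.27% at both thresholds.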

How the data were processed

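LAG-1 ChIP-seq lists of 2 biological replicates of whole young adult worms were used, on ce11 per the labels. Per the deposited notes, peaks were called on precipitated reads against a control; aligner and caller: not given in the sources used here. The deposited signal is the authors' caller value in an unnamed unit. The deposited −log10 IDR values of the authors' rankings were turned into IDR. The compared lists behind each entry are named first and second: 56113 spans of replicate 1's own ranking recur in the first with equal signal (tolerance 0.0001) and 0 in the second, and 49552 of replicate 2's recur in the second and 0 in the first.

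Gene models were Ensembl release 115; tRNA pseudogenes came from RefSeq. Each candidate was assigned to the nearest snoRNA gene. Coding promoters ran from 500 bp before to 100 bp after a 5′ end. GC content and words were read over the 201 bases centred on each summit. No test was made across regions: sets are described by counts, medians and 95% Wilson intervals, which cover counting error only. Depth is unknown, since the files used hold no read totals.

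The candidates, lists and letters were chosen with earlier results of these data known. Named candidates are those at an IDR of 0.01 or below, the 20 highest in signal, the 3 most and 3 least favoured by the first list among the 50 strongest, the 5 strongest in each place, those at 0.05 or below with a LAG-1 word, the 5 hosts with most snoRNA genes (12 tied for the last 4 places, which went by number of candidates, then signal), and all 10 snoRNA protein genes; genes with both boxes were named after their values were seen. Counting was checked on simulated entries. Alternatives were another distance, merging, repeat masking, another ranking, a stricter IDR and each replicate alone. Tools were matplotlib 3.10.9, SciPy 1.17.1, pandas 2.3.3, NumPy 2.4.6 and Python 3.11.15.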

Additional observations from a re-analysis of the deposited data

Results flagged for a closer look

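The candidate upstream of WBGene00220185, whose signal was 147.7 at an IDR of 7.94e-04, passed the authors' threshold in the ranking but is missing from their conservative list. It also touched none of their other thresholded lists, as was equally so for R166.10, F55A11.10 and ZK484.9, which the conservative list holds. Its window is 83.1% repeat-masked, and its signal was 43.5 in the first compared list and 121.3 in the second. The part of repeats in its signal was not tested.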

How the results depend on the processing

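Of 72 alternative values, 53 stayed near the main value and 19 moved. Leaving out a replicate means using the other's own ranking, which is a smaller list compared within 1 replicate. The count at an IDR of 0.01 or below, 18, was then 5 to 8, and the count at 0.05 or below, 49, was 7 to 17. The ratio of the median at snoRNA genes to that of all entries, 1.17, was then 1.05 to 1.21, and 1.27 with a distance of 250 bp. The ratio of intronic to intergenic medians, 1.04, was 0.889 to 0.960 in single replicates, 0.981 at 250 bp and 1.01 in the authors' other ranking, so its direction is not stable. The count of snoRNA protein genes with a candidate at 0.05 or below, 2, was 0 in both single replicates and 1 in the other ranking. The class within 100 bp upstream, chosen after seeing the data, had 23 of the 49 candidates at 0.05 or below. In single replicates it had 3 of 7 and 10 of 17. Its ratio of medians to elsewhere, 1.53, was 1.13 to 1.36 in single replicates, 1.40 in the other ranking and 1.45 in the first compared list alone. The cause of these changes was not tested. No paired analysis was possible because the series has 1 group. Depth is unknown, so no limit of detection can be given.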
